A study of Mus musculus with 11 samples.

Results

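The genotype by LSD1 inhibitor interaction is the contrast between the drug response of degenerating rd10 retina and the drug response of wild-type retina. It was computed for each gene as the change with drug in rd10 minus the change with drug in wild type, so a positive value means that the gene rose more, or fell less, in rd10. All 11 of the 11 libraries of the series entered it. They came from the right-eye retinas of 11 mice at postnatal day 24: 2 wild-type C57Bl/6J mice given saline, 3 wild-type C57Bl/6J mice given GSK2879552 (GSK below), 3 mice of the strain B6.CXB1-Pde6brd10/Jrd10 (rd10 below) given saline and 3 rd10 mice given GSK. Every mouse was injected intraperitoneally once a day from day 9 to day 24, with GSK at 4.2 mg/kg or with saline alone. The drug reached the whole body, the 2 strains carry different background labels, and neither sex nor litter is stated in the labels.

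GSK2879552 inhibits LSD1 (the product of Kdm1a), a demethylase that removes methyl groups from lysine 4 of histone H3 and works in repressor complexes with CoREST proteins and the histone deacetylases HDAC1 and HDAC2. The rd10 allele lies in Pde6b, which encodes the beta subunit of the rod cGMP phosphodiesterase, and it causes rods to degenerate in the weeks after eye opening while cones are lost later. As rods die, Müller glia become reactive and microglia enter the photoreceptor layer, so a bulk retina of this age holds fewer rods and more immune RNA. Counts from whole retina cannot tell apart fewer cells of a type and less RNA per cell.

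Libraries held 19657030 to 28053367 counts. Defining markers of rods, cones, bipolar, amacrine, horizontal and ganglion cells, Müller glia and microglia all passed the filter on low counts. Levels below are library-scaled CPM (counts divided by the scaled library total). Lens RNA stood out in replicate 2 of wild-type saline (lens list sum 865 CPM) and in replicate 2 of rd10 GSK (8789 CPM). These are called the lens-bearing libraries, and the remaining 9 reached 131 CPM at most. Leaving them out leaves wild-type saline with 1 animal, whose spread is then assumed to equal that of the other groups. Xist, transcribed from the inactive X chromosome, was at 0.338 CPM or less in 4 libraries (wild-type GSK replicate 2, rd10 saline replicate 2, rd10 GSK replicates 1 and 3) and at 780.5 CPM or more in the other 7. Skeletal muscle genes summed to 52.3 CPM in rd10 GSK replicate 3 and to at most 7.90 CPM elsewhere.

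The response to GSK depended on genotype for 2131 of 17099 tested genes, at an adjusted p under 0.05 in edgeR's quasi-likelihood test with Benjamini-Hochberg (BH) adjustment. That is 12.5% of all genes tested, with 1280 higher in the interaction (7.49%) and 851 lower (4.98%). Most of this difference came from the rd10 side. Within rd10, GSK changed 5621 genes (32.9%: 17.6% up, 15.2% down), whereas within wild type it changed 91 (0.532%: 0.444% up, 0.0877% down). The wild-type comparison has 2 saline animals, and its smaller count is not by itself a test that wild type responded less.

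Among the 1280 genes higher in the interaction, the median drug response was a log2 fold change of 0.57 in rd10 and -0.05 in wild type. Their quartiles were 0.38 and 0.96 in rd10 and -0.12 and 0.01 in wild type. Among the 851 lower genes the medians were -0.45 in rd10 and 0.09 in wild type. Of all 2131 genes, 2029 (95.21%) had a wild-type change smaller than 0.5 in size on the log2 scale. Between the saline groups alone, 40.5% of all genes differed (21.5% higher in rd10, 19% lower). Genes higher in the interaction had a median log2 difference of -0.62 between rd10 saline and wild-type saline, and genes lower in the interaction had 0.51. Those values share both saline groups with the interaction, so they are set beside it only as levels from which each response started. Across all 17099 genes the rd10 and wild-type responses had a Pearson correlation of -0.0315, over 2 contrasts that share no library. That value includes lens genes, with a median log2 response of 6.93 in rd10 and -6.49 in wild type. It also includes sex-linked genes, with medians of 1.13 and 10.9. Extreme values weigh heavily in a Pearson correlation, and it was not computed without these genes. A 2-fold difference between the responses or more was reached by 326 of the higher and 142 of the lower genes.

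**Figure D1:**
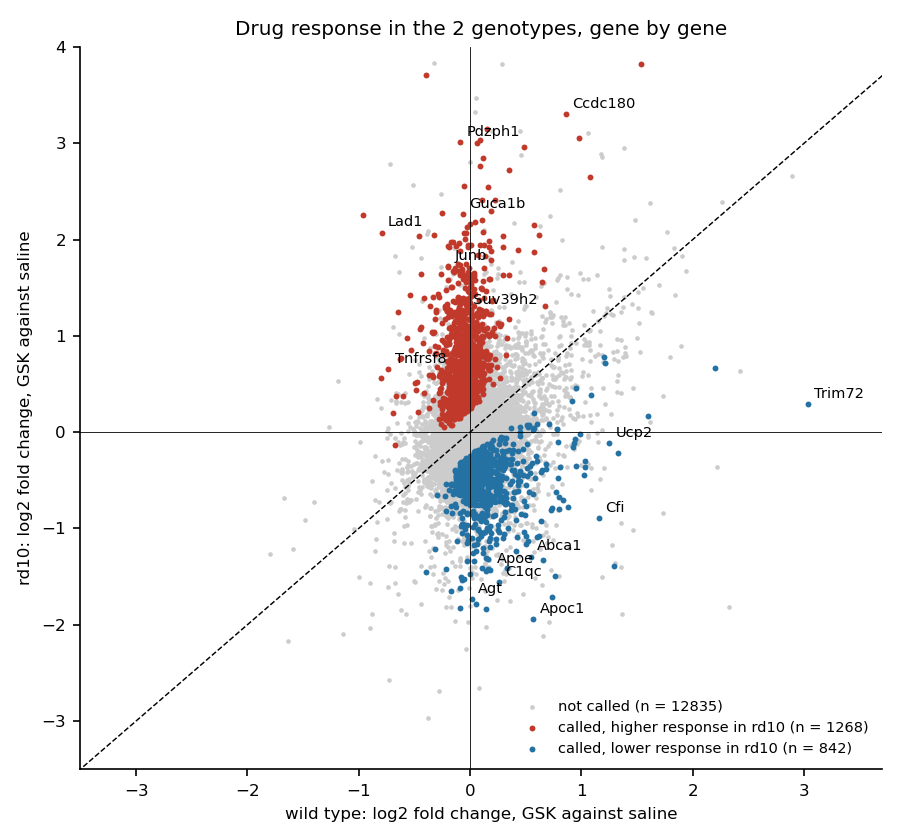
Log2 change with GSK in wild type (horizontal axis) and in rd10 (vertical axis) for each gene with a mean of at least 1 CPM, without lens, muscle and sex-linked genes; the dashed line marks equal responses and 6 points lie outside the axes. Most of the 1268 higher and 842 lower genes spread along the vertical axis and stay close to 0 on the horizontal one. Exceptions include Trim72 (3.03 in wild type), Ucp2 (1.25) and Tnfrsf8 (-0.73).

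The precision of the interaction was lower than that of either response alone, with a median standard error (SE) of 0.16 in log2 against 0.11 in rd10 and 0.12 in wild type. For 11758 genes (68.76%) the 95% interval of the interaction lay within a 2-fold difference in either direction. For 4502 genes that did not pass, the interval still included a 2-fold difference, so their responses are not shown to be alike.

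Neither of the targets named by the study passed the interaction test in its own RNA, and each passed in 1 of the 21 alternatives. Kdm1a, encoding LSD1, stood at 96.0 and 95.1 CPM with saline and 100.3, 96.6 and 105 with GSK in wild type, and at 88.9, 86.3 and 83.2 with saline and 93.6, 94.6 and 104 with GSK in rd10. The rd10 saline libraries were the lowest, the wild-type GSK libraries lay above the wild-type saline ones, and the rd10 GSK libraries overlapped both wild-type groups. The interaction was 0.10 ± 0.08 (log2 ± SE, adjusted p = 0.460, 95% interval -0.08 to 0.28). It was 0.33 (adjusted p = 0.0149) under inner retina scaling, in which size factors come from amacrine, bipolar and ganglion cell genes. Hdac1, encoding histone deacetylase 1, had an interaction of -0.26 ± 0.10 (adjusted p = 0.131, interval -0.48 to -0.03), with an rd10 response of -0.26 and a wild-type response of -0.01. Without rd10 GSK replicate 1 its interaction was -0.33 (adjusted p = 0.0166), and under inner retina scaling it was -0.03. The Kdm1a counts are uncertain where the gene overlaps Luzp1 on the opposite strand, because the strand setting of the counting is not given.

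The response of rod genes to GSK differed between the genotypes. Of 24 genes in the rod list, 21 were higher in the interaction and 0 lower, against 7.49% and 4.98% of all genes. The list had a median interaction of 1.64 in log2, with a median response of 1.62 in rd10 and -0.05 in wild type, while the median over all genes was 0.00 for the interaction. For genes used by both rods and cones, 28 of 32 were higher, 0 lower, and the median was 1.27. Without the lens-bearing libraries 13 of the 24 rod genes and 14 of the 32 shared genes passed, with medians of 1.64 and 1.24.

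Guca1b, encoding a calcium sensor that activates photoreceptor guanylate cyclase, was measured at 1226 and 1166 CPM with saline and 1176, 1122 and 1138 with GSK in wild type, and at 132, 131 and 158 with saline and 530.0, 657 and 829.9 with GSK in rd10. The treated rd10 libraries lay between the other rd10 and the wild-type libraries without overlap, and replicate 1 was the lowest of the treated rd10 animals. The interaction was 2.32 ± 0.20 (adjusted p = 1.40e-04), made of 2.26 ± 0.14 in rd10 and -0.06 ± 0.15 in wild type, and it passed in all 21 alternatives.

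Pde6b, the gene that carries the rd10 allele, followed the same order. Its levels were 2231 and 2301 CPM with saline and 2282, 2214 and 2232 with GSK in wild type, and at 332, 333 and 422 with saline and 991, 1381 and 1757 with GSK in rd10. Treated rd10 libraries exceeded all saline rd10 libraries, and none reached the wild-type range. The interaction was 1.94 ± 0.26 with an adjusted p of 0.00188, and it passed in all 21 alternatives. The other rod phosphodiesterase and channel genes had interactions of similar size, 1.72 for Pde6a (alpha subunit), 1.84 for Pde6g (the inhibitory gamma subunit), 1.60 for Cnga1 and 1.51 for Cngb1 (the 2 subunits of the rod cGMP-gated channel). Gnat1, the alpha subunit of rod transducin, had 2.15.

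Transcription factors of photoreceptors were part of the group. Nrl, the leucine-zipper factor that specifies rods, stood at 1781 and 1787 CPM with saline and 1764, 1777 and 1719 with GSK in wild type, and at 211, 214 and 261 with saline and 588, 1014 and 1405 with GSK in rd10. The 3 treated rd10 libraries spanned more than a 2-fold range, all above the saline ones and below wild type. Its interaction of 2.16 ± 0.38 (adjusted p = 0.00898) passed in 20 of the 21 alternatives (adjusted p 3.25e-06 to 0.0718), the exception being the one without the lens-bearing libraries. Crx and Neurod1, photoreceptor homeodomain and basic helix-loop-helix factors, had 1.04 and 1.12, and Mef2c and Esrrb had 1.40 and 2.14. The rod nuclear receptor Nr2e3 did not pass (1.18 ± 0.45, adjusted p = 0.134), with treated rd10 libraries at 269, 416 and 692 CPM. Otx2, which acts upstream in photoreceptors and bipolar cells, had 0.19 ± 0.10 (adjusted p = 0.241).

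The remaining rod-list genes that did not pass were Sag, encoding arrestin, at 0.79 ± 0.23 (adjusted p = 0.0541), and Gnmt at 0.06 ± 0.33. Outer segment and visual cycle genes of the shared list did pass, among them Prph2 (peripherin-2, which shapes disc rims) at 1.97, Abca4 (the flippase for retinal adducts in discs) at 1.64, Rbp3 (the retinoid-binding protein of the space between photoreceptors and pigment epithelium) at 1.59 and Rdh12 (a retinol dehydrogenase) at 1.77. Pdc, encoding phosducin, which binds transducin subunits, was the highest of the shared list at 2.10 and Lrit1 the lowest that passed at 0.72. In summed level, the rod list reached 33594, 52350.1 and 63806 CPM in the treated rd10 replicates, against 12201 to 14681 in rd10 saline and 77292 to 84173 in wild type.

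**Figure D2:**
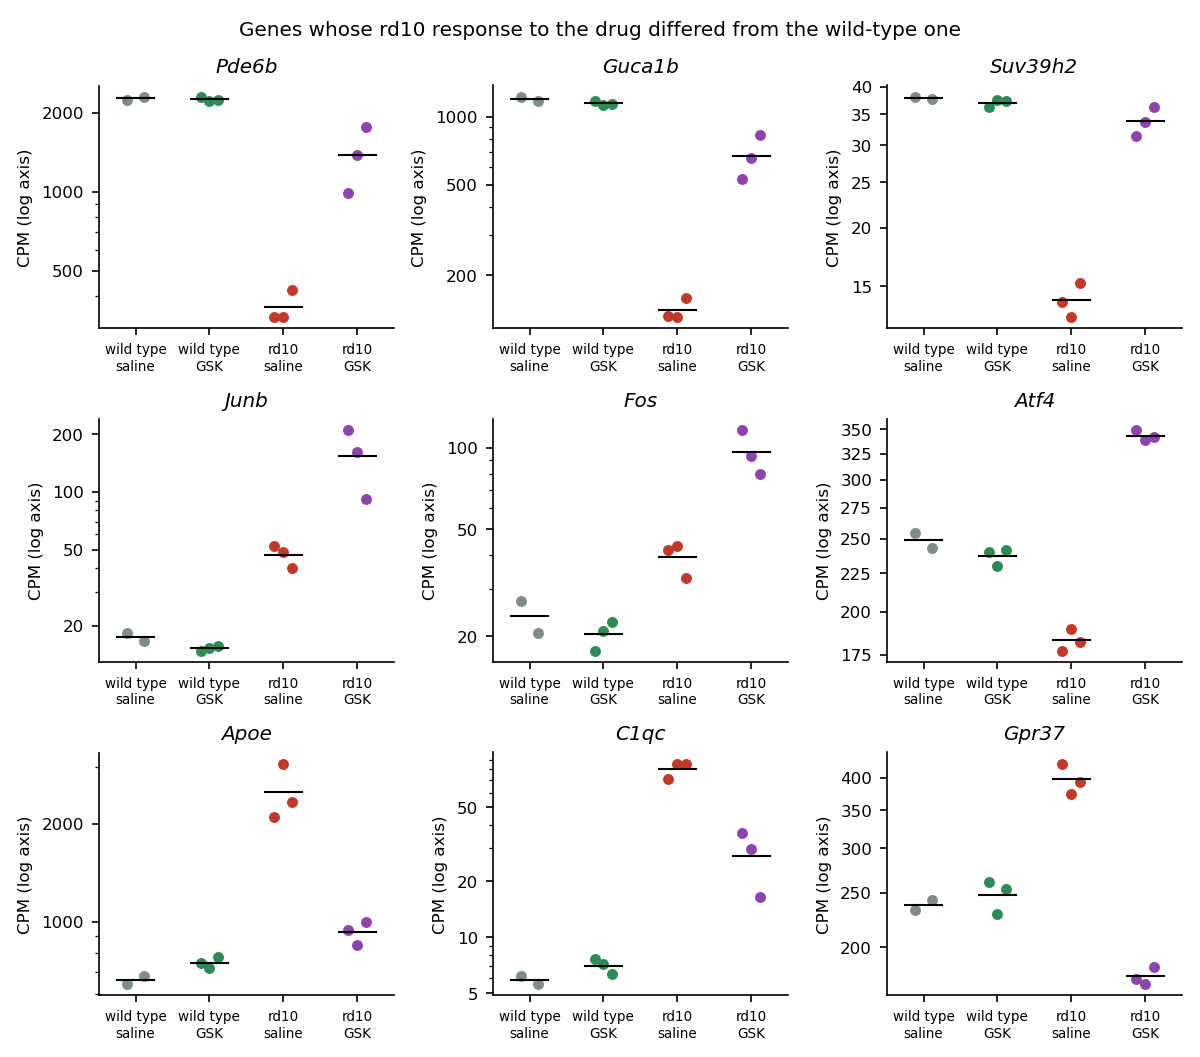
Level of 9 genes (CPM, log axis) in each of the 11 libraries by group, with bars at group means. Pde6b, Guca1b and Suv39h2 in treated rd10 lie between rd10 saline and wild type, Junb, Fos and Atf4 lie above all other groups, and Apoe, C1qc and Gpr37 lie below rd10 saline.

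CRX and OTX2 bind DNA at a homeodomain motif, TAATCC. RefSeq promoters of tested genes were searched for these letters on both strands, as GGATTA on the other. A promoter here is the 300 bases from 250 before to 50 after the annotated start, in build GRCm38.p6, which differs from the NCBIM37 and mm9 builds that the submitters' processing notes name. Among tested list members, called or not, the motif was present in 6 of 16 rod-list promoters (37.5%) and in 10 of 26 shared-list promoters (38.46%). The share was 708 of 11962 promoters of all tested genes (5.92%). Of 8 promoters of called photoreceptor genes named by the rule, 1 held the motif. It was in 72 of 1008 promoters of genes higher in the interaction (7.14%) and 33 of 636 of genes lower (5.19%). These matches describe the letters in the window and show neither binding nor cause. Prcd, encoding a disc-rim protein, was the member chosen by the rule for named genes. The promoters of Abca4, Cnga1, Rbp3 and Samd7 were added after their values were seen. Of the 11 other called genes of the 2 rod lists whose promoter holds the motif TAATCC, they had the largest interactions (1.64, 1.60, 1.59 and 1.54). Each is written 5′ to 3′ on the gene's strand, with the motif in capitals.
Prcd: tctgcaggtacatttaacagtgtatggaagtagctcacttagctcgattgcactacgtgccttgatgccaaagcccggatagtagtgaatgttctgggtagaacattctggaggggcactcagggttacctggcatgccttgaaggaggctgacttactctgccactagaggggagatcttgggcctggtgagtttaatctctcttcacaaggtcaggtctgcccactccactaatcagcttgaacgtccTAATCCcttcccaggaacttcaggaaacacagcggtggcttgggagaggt
Abca4: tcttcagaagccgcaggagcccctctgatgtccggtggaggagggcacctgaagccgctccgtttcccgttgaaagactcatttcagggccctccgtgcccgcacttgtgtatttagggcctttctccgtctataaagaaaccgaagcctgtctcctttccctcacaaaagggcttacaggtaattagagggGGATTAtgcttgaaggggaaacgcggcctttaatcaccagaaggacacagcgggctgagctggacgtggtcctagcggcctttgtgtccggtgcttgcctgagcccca
Cnga1: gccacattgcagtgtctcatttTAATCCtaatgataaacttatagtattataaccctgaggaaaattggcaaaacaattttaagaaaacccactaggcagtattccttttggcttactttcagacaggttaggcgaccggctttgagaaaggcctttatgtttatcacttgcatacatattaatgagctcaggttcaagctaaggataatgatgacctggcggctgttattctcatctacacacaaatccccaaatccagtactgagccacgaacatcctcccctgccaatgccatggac
Rbp3: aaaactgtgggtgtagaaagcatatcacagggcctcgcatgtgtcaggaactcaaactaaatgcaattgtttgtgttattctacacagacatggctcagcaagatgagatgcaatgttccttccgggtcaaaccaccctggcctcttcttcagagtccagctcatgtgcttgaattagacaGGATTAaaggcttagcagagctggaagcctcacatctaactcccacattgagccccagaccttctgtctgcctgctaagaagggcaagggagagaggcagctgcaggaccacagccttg
Samd7: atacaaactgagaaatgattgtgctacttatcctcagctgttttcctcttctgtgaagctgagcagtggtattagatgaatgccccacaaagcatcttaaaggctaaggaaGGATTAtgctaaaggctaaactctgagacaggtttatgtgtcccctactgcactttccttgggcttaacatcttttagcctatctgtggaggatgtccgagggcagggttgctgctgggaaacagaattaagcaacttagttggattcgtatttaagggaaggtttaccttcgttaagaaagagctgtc
The Prcd promoter is chr11:116656858-116657157 on the plus strand, and the motif begins at the annotated start. Abca4 is at chr3:122044210-122044509 on the plus strand with the reverse complement 58 bases before the start. The Cnga1 window is chr5:72642703-72643002 on the minus strand, with the motif in sense 228 bases before the start. Rbp3 lies at chr14:33953753-33954052 on the plus strand, with the reverse complement 69 bases before the start, and Samd7 at chr3:30746043-30746342 on the plus strand with the reverse complement 139 bases before it. Prcd had an interaction of 1.85 ± 0.31 (adjusted p = 0.00630) and overlaps Cygb on the opposite strand, so its counts are uncertain.

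Synaptic genes were divided. Of 17 genes in the photoreceptor synapse list, 7 were higher (41.2%, against 7.49% of all genes) and 1 lower (5.88%, against 4.98%). The median was 0.37. The higher ones included Cabp4 (a calcium sensor of the presynaptic channel) at 1.31, Cplx4 (a ribbon-synapse complexin) at 1.29 ± 0.15 with an adjusted p of 3.58e-04, Egflam (pikachurin, which links the synapse to dystroglycan) at 1.28 and Slc17a7 (the vesicular glutamate transporter) at 0.74. The 1 lower gene was Cplx3 at -0.31, a complexin also present in other retinal neurons. General presynaptic genes stayed near 0, with Syp at 0.03 (interval -0.21 to 0.27) and Syt1 at -0.01 (interval -0.21 to 0.19).

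Cone genes did not follow rod genes. Of 17 in the cone list 0 were higher and 4 were lower (23.5%, against 4.98% of all genes). The median interaction was -0.29, with a median response of -0.18 in rd10 and 0.10 in wild type. The 4 were Ccdc136 at -0.81, Cngb3 and Cnga3 (the subunits of the cone cGMP-gated channel) at -0.66 and -0.48, and Pde6h (the inhibitory cone phosphodiesterase subunit) at -0.49. For Cngb3 the levels were 39.6 and 35.6 CPM with saline and 38.8, 41.5 and 42.8 with GSK in wild type, and at 34.2, 27.2 and 34.7 with saline and 18.9, 23.9 and 23.8 with GSK in rd10. The treated rd10 libraries were the lowest of all 11. The cone opsins Opn1sw and Opn1mw had -0.19 ± 0.54 and 0.29 ± 0.30, and neither passed. Under inner retina scaling 1 cone gene was higher and 1 lower, and without the lens-bearing libraries 0 passed.

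Bipolar cell genes were lower in the interaction. Of 23 bipolar genes 12 were lower and 0 higher, with a median of -0.44 made of -0.40 in rd10 and 0.06 in wild type. The lower share was 52.2%, against 4.98% of all genes. The count was 4 without the lens-bearing libraries and 17 without rd10 GSK replicate 3. They included genes of the ON-bipolar cascade that receives the photoreceptor signal, Grm6 (the glutamate receptor) at -0.50, Trpm1 (the channel it controls) at -0.59 and Gpr179 (an organiser of the cascade) at -0.80. Cabp5, a calcium-binding protein of bipolar cells, stood at 121 and 113 CPM with saline and 126, 118 and 122 with GSK in wild type, and at 132, 143 and 134 with saline and 83.6, 80.0 and 87.1 with GSK in rd10. The treated rd10 libraries lay below all others, and the other groups ran from 113 to 143 CPM. Its interaction of -0.76 ± 0.08 (adjusted p = 2.43e-04) passed in all 21 alternatives.

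Among amacrine genes 4 of 20 were lower and 0 higher with a median of -0.17, and 0 passed without the lens-bearing libraries. The 4, 20% of the list against 4.98% of all genes, were Sst (somatostatin) at -0.90, Pax6 at -0.39, Dab1 at -0.36 and C1ql1 at -0.31. Of 8 horizontal cell genes, 1 was lower (12.5%, against 4.98% of all genes). It was the homeodomain factor Lhx1 at -0.89 ± 0.14 (adjusted p = 0.00208), and it passed in all 21 alternatives. Inner retina scaling shifted the median interaction of all genes to 0.22, and 4145 genes passed, of which 93.61% were higher, against 60.07% of those that passed with the standard scaling. The amacrine, bipolar and ganglion lists define that scaling, so their medians under it are partly set by its construction and do not check the results above. These medians were 0.05, -0.23 and 0.15, with 0, 5 and 0 genes lower and 1, 1 and 2 higher.

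Most ganglion cell and axonal genes fell with GSK in rd10, and few of them passed the interaction test. In the ganglion list 0 of 19 genes passed the interaction test (4 at an unadjusted p under 0.05 in edgeR, 2 called by DESeq2 and 0 by limma-voom), with a median of -0.08. Within genotypes, 12 of these genes fell in rd10 and 2 in wild type. In the list of axonal neurofilament and fast-spiking genes, 13 of 15 fell in rd10 and 4 in wild type, against 15.2% and 0.0877% of all genes. Only Kcnab1, a potassium channel beta subunit, was lower in the interaction (-0.31, adjusted p = 0.0265), and the list's median of -0.14 turned to 0.08 under inner retina scaling.

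Nefm, the medium neurofilament subunit, stood at 322 and 315 CPM with saline and 246, 232 and 241 with GSK in wild type, and at 293, 282 and 283 with saline and 220.0, 214 and 226 with GSK in rd10. In each genotype all GSK libraries were below all saline libraries. The response was -0.38 in rd10 (adjusted p = 1.75e-04) and -0.41 in wild type (adjusted p = 0.00529), and the interaction was 0.04 ± 0.07 with a 95% interval of -0.12 to 0.19. Vamp1, a synaptic vesicle protein of large axons, had -0.51 in rd10, -0.47 in wild type and an interaction interval of -0.21 to 0.12. Nefl, the light subunit, had -0.29 and -0.31 with an interval of -0.18 to 0.22, while the heavy subunit Nefh had -0.38 and -0.61 and an interaction of 0.23 ± 0.07 (adjusted p = 0.0636). For Nefm, Vamp1 and Nefl a 2-fold difference between genotypes lies outside these intervals. Nefm, Vamp1 and Nefh were chosen for mention after their values were seen. Nefl and Nefm overlap on opposite strands, so their counts are uncertain.

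Müller glia genes were lower in the interaction, 8 of 20 (40%, against 4.98% of all genes) with 0 higher and a median of -0.67. The count was 4 without the lens-bearing libraries and 13 without rd10 GSK replicate 1. The rd10 median response was -0.57 and the wild-type one 0.12. Gpr37, a receptor of glial cells, stood at 233 and 243 CPM with saline and 261, 229 and 254 with GSK in wild type, and at 424, 374 and 394 with saline and 176, 172 and 185 with GSK in rd10. All treated rd10 libraries were below all wild-type ones, and all saline rd10 libraries above them. The interaction was -1.22 ± 0.10 (adjusted p = 4.42e-05). Apoe, encoding the lipid carrier apolipoprotein E, which microglia also express, stood at 641 and 678 CPM with saline and 748, 719 and 777 with GSK in wild type, and at 2101, 3069 and 2341 with saline and 944, 848 and 997 with GSK in rd10. Saline rd10 libraries were the highest by a wide margin, and treated rd10 libraries were lower than these but above the wild-type range. The interaction was -1.61 ± 0.18 (adjusted p = 3.60e-04), and both Gpr37 and Apoe passed in all 21 alternatives.

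The other Müller genes that were lower were Car14 (a carbonic anhydrase), Aqp4 (the water channel of the endfeet), Dapl1, Rlbp1 (the retinoid carrier of these cells), Dkk3 and Kcnj10 (the potassium channel of the endfeet), between -1.33 and -0.69. Glul, glutamine synthetase, did not pass: treated rd10 libraries were at 942, 1611 and 2788 CPM, with the highest and lowest far apart, and the interaction was -0.63 ± 0.47. Among reactive gliosis genes 0 of 20 were called (0 at an unadjusted p under 0.05 in edgeR, 0 called by DESeq2 and 0 by limma-voom) and a median of 0.14 beside a median SE of 0.68. Without rd10 GSK replicate 3, 4 of them were higher, without rd10 GSK replicate 1, 2 were lower, and without the lens-bearing libraries the median turned to -0.20. Gfap, the intermediate filament of reactive glia, stood at 40.3 and 34.3 CPM with saline and 23.3, 23.3 and 25.2 with GSK in wild type, and at 479.8, 471 and 368 with saline and 294, 324 and 128 with GSK in rd10. It was lower with GSK in both genotypes by group mean, without overlap of libraries, but the response passed in neither genotype. The interaction was -0.18 ± 0.47 with an interval of -1.27 to 0.90. In the astrocyte list, 1 of 7 genes was lower (14.3%, against 4.98% of all genes). It was Agt (angiotensinogen) at -1.75 ± 0.23 (adjusted p = 7.90e-04), which passed in all 21 alternatives.

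Microglial genes were lower in the interaction, 8 of 22 (36.4%, against 4.98% of all genes) with 0 higher and a median of -1.35. The median response was -1.29 in rd10 against 0.06 in wild type, where this list summed to only 130.2 to 138 CPM. It summed to 734, 876 and 926 CPM in rd10 saline and 484, 339 and 219 CPM in rd10 GSK. C1qc, a chain of the complement starter C1q made by microglia, stood at 6.17 and 5.58 CPM with saline and 7.64, 7.14 and 6.33 with GSK in wild type, and at 70.8, 85.3 and 86.0 with saline and 36.2, 29.7 and 16.4 with GSK in rd10. Treated rd10 libraries were below all saline rd10 libraries and above all wild-type ones. The interaction was -1.82 ± 0.39 (adjusted p = 0.0193), and it passed in 16 of the 21 alternatives (adjusted p 2.53e-06 to 0.149).

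Other members that passed included the C1q chain C1qa (-1.47), the lipid receptor Trem2 (-1.74), the growth factor receptor Csf1r (-1.32), the purine receptor P2ry13 (-1.45), Ly86 (-1.29) and the homeostatic marker Tmem119 (-1.03). The count depended on single libraries: 0 of 22 passed without the lens-bearing libraries and 19 without rd10 GSK replicate 1, while the list's median lay between -1.70 and -1.09 in all 21 alternatives. Of 22 activation genes 4 were lower (18.2%, against 4.98% of all genes), with a median of -1.07. The count was 2 under inner retina scaling and 12 without rd10 GSK replicate 1. Apoc1 (an apolipoprotein) had -2.51 ± 0.30 and Ctsd (the protease cathepsin D) -1.38 ± 0.17, both passing in all 21 alternatives. Ctsz (cathepsin Z) had -1.08 and Igf1 (insulin-like growth factor 1) -0.45. Of 15 complement genes 4 were lower (26.7%, against 4.98% of all genes), with a median of -1.15, among them C1qa, C1qc and the protease Cfi (-2.05). The complement count was 0 without wild-type saline replicate 1, 1 without the lens-bearing libraries and 7 without rd10 GSK replicate 1. C1qa passed in 8 of the 21 alternatives (adjusted p 2.05e-04 to 0.192) and Cfi in 9 of the 21 alternatives (adjusted p 6.40e-04 to 0.160).

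Interferon and antigen presentation genes did not pass although their medians were large. The interferon list had a median interaction of -1.31 with 0 of 29 called (2 at an unadjusted p under 0.05 in edgeR, 2 called by DESeq2 and 0 by limma-voom), and its median SE was 0.85. Its summed level was 1363, 1133 and 341 CPM in the treated rd10 replicates, 1577, 1806 and 1814 in rd10 saline and 187 to 219 in wild type, so replicate 3 lay far below the other 2 treated animals. Without rd10 GSK replicate 3, 12 of 29 were lower. MHC class I genes showed the same spread, with 0 of 13 called (2 at an unadjusted p under 0.05 in edgeR, 2 called by DESeq2 and 0 by limma-voom), a median of -1.23 and 7 lower without rd10 GSK replicate 3. B2m, the light chain of class I, was at 156, 139 and 35.2 CPM in treated rd10. Of 7 MHC class II genes 0 passed (1 at an unadjusted p under 0.05 in edgeR, 2 called by DESeq2 and 0 by limma-voom), with a median of -1.68 beside a median SE of 1.39. Of the chemokine list 1 of 22 was higher (4.55%, against 7.49% of all genes). It was Tnfaip3 (1.61 ± 0.25), an inhibitor of NF-kappa-B signalling. Its level was 338 and 336 CPM in wild-type saline, 62.9, 58.0 and 75.2 in rd10 saline and 148, 199 and 258 in rd10 GSK, lower in rd10 saline than in wild type while the list's median difference between those 2 groups was 3.52. The call for Tnfaip3 held in 20 of the 21 alternatives (adjusted p 4.91e-10 to 0.0510).

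Immediate early genes, which encode AP-1 and related factors that cells switch on within minutes of a stimulus, had positive interactions. Of 16, 10 were higher (62.5%, against 7.49% of all genes) and 0 lower, with a median of 1.21. Median responses of this list were 1.10 in rd10 and -0.10 in wild type. Fos, the AP-1 subunit, stood at 27.0 and 20.6 CPM with saline and 17.7, 21.0 and 22.6 with GSK in wild type, and at 41.9, 43.3 and 32.9 with saline and 116, 93.3 and 79.7 with GSK in rd10. The treated rd10 libraries were higher than all others, wild type and untreated rd10 included. Its interaction was 1.52 ± 0.25 (adjusted p = 0.00562), and it passed in all 21 alternatives. Junb, another subunit, stood at 18.3 and 16.7 CPM with saline and 14.8, 15.3 and 15.6 with GSK in wild type, and at 52.4, 48.4 and 40.1 with saline and 210.1, 162 and 91.4 with GSK in rd10. Here too the treated rd10 libraries were the highest, with replicate 1 above the others and replicate 3 lowest, and the interaction of 1.92 ± 0.41 (adjusted p = 0.0202) passed in 16 of the 21 alternatives (adjusted p 6.63e-05 to 0.123). Junb overlaps Prdx2 on the opposite strand.

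The neuronal activity factor Npas4 had 1.83, the stress factor Atf3 1.50, the orphan receptor Nr4a1 1.41 and the phosphatase Dusp1 0.89. Without the lens-bearing libraries 4 of the 16 passed. Npas4 was at 5.67, 5.91 and 7.48 CPM in the treated rd10 libraries and lay between 1.65 and 2.85 CPM in the other 8.

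The integrated stress response, which lowers translation and induces the factor ATF4, had a mixed outcome. Atf4 stood at 255 and 243 CPM with saline and 240.0, 229.7 and 242 with GSK in wild type, and at 177, 189.7 and 182 with saline and 349, 339 and 342 with GSK in rd10. The treated rd10 libraries were the highest of all 11, close to each other, and rd10 saline was lowest. The interaction was 0.98 ± 0.07 (adjusted p = 3.20e-05), and it passed in all 21 alternatives. The ATF4-linked genes Atf5 (0.89), Trib3 (0.89), Ddit3 (CHOP, 0.70) and Ppp1r15a (GADD34, 0.68) were also higher. That makes 5 of 15 in the list (33.3%, against 7.49% of all genes). The chaperones of the endoplasmic reticulum, Hspa5 (-0.07 ± 0.15, interval -0.40 to 0.25) and Hsp90b1 (-0.11), did not pass, nor did Asns (-0.10) or Chac1 (-0.40), both also ATF4 targets. The list's median was 0.13.

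Some genes of glycolysis were higher in the interaction. Of 23 in the list 6 were higher (26.1%, against 7.49% of all genes) and 1 lower with a median of 0.24. Inner retina scaling gave 15 higher, and 2 were higher without the lens-bearing libraries. Hk2, the hexokinase that rods express strongly, had 1.74 ± 0.30 (adjusted p = 0.00772). Hk1, the hexokinase of most neurons, stood at 1096 and 1054 CPM with saline and 1018, 1035 and 1048 with GSK in wild type, and at 749, 754 and 783 with saline and 1245, 1412 and 1397 with GSK in rd10. Treated rd10 libraries were the highest and saline rd10 the lowest, with wild type between, and the interaction was 0.88 ± 0.09 (adjusted p = 1.71e-04), passing in all 21 alternatives. Aldoa, Pkm, Ldha and Gapdh followed with 0.45, 0.47, 0.54 and 0.31, and the 1 lower gene was the enolase Eno1 (-0.35). Calls in oxidative phosphorylation were no more frequent than among all genes (7.49% higher, 4.98% lower), with 1 of 22 genes higher (Ndufa4, 0.48) and 1 lower (Ndufs4, -0.32), a median of 0.07, and under inner retina scaling 11 were higher.

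Chromatin lists differed in their shares of calls, beside 7.49% higher and 4.98% lower among all genes. In the list of LSD1 and HDAC complex members the shares were close to these, with 2 of 26 higher (7.69%), Mta2 (a NuRD subunit, 0.76 ± 0.09) and Sin3a (the scaffold of another deacetylase complex, 0.33), and 1 lower, the neuronal repressor Rest (-0.39), which passed in 8 of the 21 alternatives (adjusted p 0.00904 to 0.373). The list's median of -0.04 turned to 0.18 under inner retina scaling, where 8 were higher. Among 26 histone lysine methylation genes 6 were higher (23.1%) and 0 lower, with a median of 0.18. The count rose to 13 under inner retina scaling and was 2 without the lens-bearing libraries. Suv39h2, a methyltransferase of lysine 9 of histone H3, stood at 38.1 and 37.6 CPM with saline and 36.2, 37.6 and 37.4 with GSK in wild type, and at 13.9, 12.9 and 15.3 with saline and 31.4, 33.6 and 36.2 with GSK in rd10. Treated rd10 libraries were more than 2-fold above saline rd10 and close to the wild-type range, and the interaction was 1.30 ± 0.11 (adjusted p = 6.00e-05). The demethylase Kdm4c had 0.68, and it and Suv39h2 passed in all 21 alternatives. The others were Dot1l (0.60), Kdm5b (0.58), Ezh1 (0.42) and Kdm3a (0.38). Nuclear lamina genes had 5 of 11 higher (45.5%) and 0 lower, among them Casz1 (1.04), a zinc-finger regulator placed in this list for its link to rod nuclear architecture, Lmnb1 (lamin B1, 0.67) and Lbr (the lamin B receptor, 0.57), and 0 passed without the lens-bearing libraries.

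**Figure D3:**
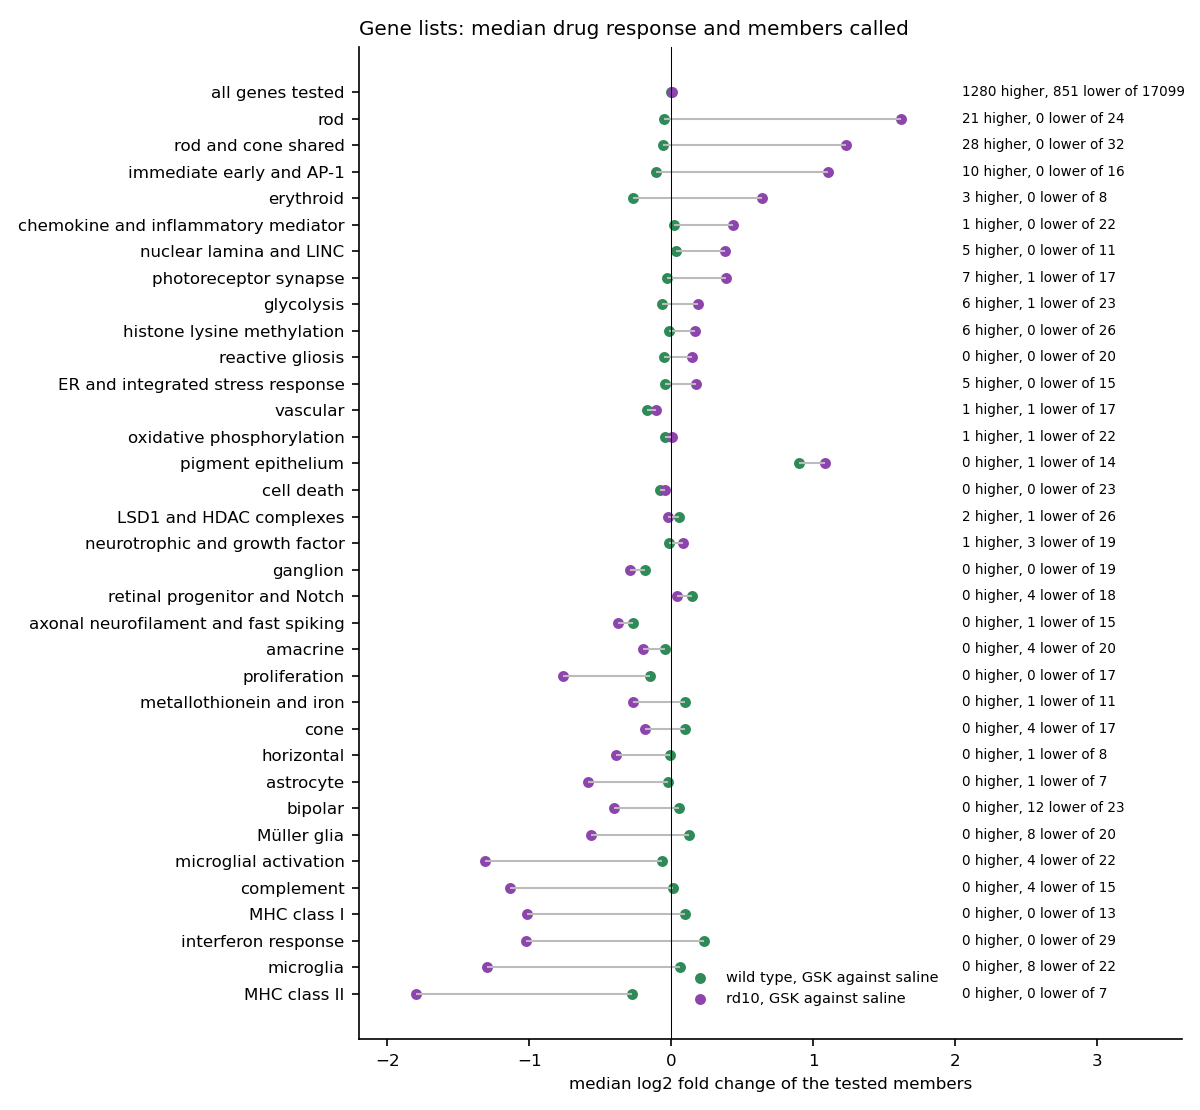
Median log2 change with GSK in wild type and in rd10 for each gene list, with the number of members higher and lower in the interaction. The rod lists and the immediate early list lie to the right in rd10 and the microglial, Müller glia and bipolar lists to the left, while the wild-type medians of these lists lie between -0.10 and 0.12.

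In other lists the counts are set beside 7.49% higher and 4.98% lower among all genes. In cell death 0 of 23 passed (3 at an unadjusted p under 0.05 in edgeR, 0 called by DESeq2 and 0 by limma-voom), with a median of -0.03 that turned to 0.19 under inner retina scaling. In proliferation 0 of 17 passed (4 at an unadjusted p under 0.05 in edgeR, 0 called by DESeq2 and 0 by limma-voom), with a median of -0.22 that was 0.00 under inner retina scaling. The most abundant member of each was Parp1, a DNA repair polymerase, at 0.32 ± 0.13 (interval 0.05 to 0.60), and Pcna, the replication clamp, at 0.26 ± 0.09 (interval 0.07 to 0.45). Growth factors had 1 of 19 higher (Vegfa, 0.36) and 3 lower (Fgf13 at -0.50, Igf1 and Gfra2 at -0.27), with a median of -0.07 that turned to 0.15 under that scaling, where 2 were higher and 0 lower, and 0 passed without the lens-bearing libraries. Of 11 metallothionein and iron genes 1 was lower, the ferritin light chain Ftl1 (-0.68), with a median of -0.26; under that scaling the median was -0.01, with 1 higher and 0 lower. Progenitor and Notch genes had 4 of 18 lower (22.2%, and 1 gene without the lens-bearing libraries), among them Notch2 (-0.98), Lhx2 (-0.54) and Pax6, with a median of -0.14 that turned to 0.07 under inner retina scaling. The endothelial receptor Kdr was the 1 lower of 17 vascular genes (-0.89) and the smooth muscle gene Tagln the 1 higher (1.26).

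Across the whole table, the 10 largest positive interactions among named genes with a mean of at least 5 CPM were not limited to rod markers. Pdzph1, a gene with PDZ and pleckstrin homology domains, stood at 395 and 403 CPM with saline and 375, 345 and 406 with GSK in wild type, and at 25.3, 21.2 and 31.8 with saline and 170.3, 225 and 237 with GSK in rd10. Treated rd10 libraries lay above saline rd10 and below wild type without overlap, with an interaction of 3.10 ± 0.23 (adjusted p = 6.74e-05). Sp6, a zinc-finger transcription factor, stood at 17.0 and 17.3 CPM with saline and 17.3, 15.0 and 19.4 with GSK in wild type, and at 10.9, 8.21 and 9.98 with saline and 50.5, 47.3 and 32.8 with GSK in rd10. Here the treated rd10 libraries were above every wild-type library, and the interaction was 2.16 ± 0.24 (adjusted p = 4.93e-04). Pdzph1 and Sp6 passed in all 21 alternatives. Lad1, encoding the basement membrane protein ladinin, was at 9.82, 7.75 and 8.08 CPM with saline and 47.6, 39.7 and 20.7 with GSK in rd10. In wild type no library was above 1.45 CPM, so rd10 saline was above wild type, unlike for Pdzph1 and Sp6. Its interaction of 2.87 ± 0.58 passed in 18 of the 21 alternatives (adjusted p 3.14e-07 to 0.216). Gm16055 (2.94) and Gm14091 (2.73) are antisense to Umad1 and Knstrn and are uncertain, and Ccdc180 (2.44) and Sh2d1a (2.37) were lost in more than 10 alternatives each.

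In a smaller set the wild-type estimate was the larger of the 2 responses. This was so in 131 of the 2131 genes (positive in wild type in 100 and negative in 31). The count compares estimates only, and 91 genes of the whole table were called in wild type. It includes genes with responses of like size and opposite sign, such as Tnfrsf8 (-0.73 in wild type, 0.65 in rd10).

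Ucp2, a mitochondrial uncoupling protein, stood at 14.5 and 18.2 CPM with saline and 38.4, 38.6 and 39.9 with GSK in wild type, and at 42.1, 52.8 and 54.8 with saline and 54.5, 42.8 and 40.7 with GSK in rd10. It rose in wild type without overlap, whereas the rd10 libraries were high with either treatment and overlapped. The interaction was -1.37 ± 0.20 (adjusted p = 0.00200), made of 1.25 ± 0.15 in wild type (adjusted p = 0.00603) and -0.12 ± 0.13 in rd10, and it passed in all 21 alternatives. Trim72, a membrane repair protein known from muscle, stood at 0.670 and 0.395 CPM with saline and 4.45, 4.69 and 3.94 with GSK in wild type, and at 9.34, 10.9 and 7.06 with saline and 14.0, 12.1 and 7.22 with GSK in rd10. The wild-type rise was again without overlap and the rd10 groups overlapped. Its interaction was -2.75 ± 0.45 (adjusted p = 0.00378), and it passed in 20 of the 21 alternatives (adjusted p 5.56e-07 to 0.0686), the exception being the one without the lens-bearing libraries. Skeletal muscle genes had no library in wild type above 7.90 CPM in sum.

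Opposite estimates of at least 0.5 in log2 in both genotypes were seen for 40 genes called in the interaction, 9 of them at a mean of at least 5 CPM. This cut does not require either response to pass. Of the 66 genes called in both genotypes, 63 had the same sign. Abca1, the cholesterol efflux transporter that loads apolipoprotein E, stood at 47.3 and 49.1 CPM with saline and 63.0, 73.8 and 74.2 with GSK in wild type, and at 199, 152 and 209.9 with saline and 76.7, 67.6 and 84.7 with GSK in rd10. It was higher with GSK in wild type and lower with GSK in rd10, each without overlap, and the treated libraries of both genotypes overlapped. The interaction was -1.84 ± 0.19 (adjusted p = 3.09e-04), with 0.54 ± 0.14 in wild type (adjusted p = 0.176, not called) and -1.29 ± 0.12 in rd10 (adjusted p = 5.42e-05). Tnfrsf8, encoding the receptor CD30, moved the other way, at 9.72 and 10.8 CPM with saline and 6.35, 6.20 and 5.96 with GSK in wild type, and at 6.11, 5.22 and 6.01 with saline and 8.59, 9.64 and 9.06 with GSK in rd10. Groups did not overlap within either genotype, both responses passed (-0.73 in wild type, 0.65 in rd10), and the interaction was 1.39 ± 0.15 (adjusted p = 2.71e-04). Abca1 was chosen for its low interaction and its opposite estimates, and Tnfrsf8 for a wild-type estimate larger than the rd10 one. The separation of their libraries is therefore partly set by the choice.

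Apod, an apolipoprotein, and Aldh3b1, an aldehyde dehydrogenase, had the pattern of Abca1. Apod was at 2.11 and 2.42 CPM with saline and 4.12, 3.83 and 3.67 with GSK in wild type, and at 7.99, 11.3 and 8.16 with saline and 5.43, 7.01 and 5.43 with GSK in rd10. Aldh3b1 was at 2.63 and 2.37 CPM with saline and 4.97, 4.24 and 3.80 with GSK in wild type, and at 8.60, 7.48 and 8.08 with saline and 5.78, 5.12 and 4.27 with GSK in rd10. In both genes GSK and saline libraries were apart in each genotype. Both were chosen for a wild-type estimate larger than the rd10 one, so this separation is partly set by the choice. Their wild-type responses did not pass (0.77, adjusted p = 0.154, and 0.80, adjusted p = 0.0872). The interactions were -1.39 ± 0.26 and -1.47 ± 0.23 (adjusted p = 0.00530 and 0.00213). Abca1, Tnfrsf8, Apod and Aldh3b1 passed in all 21 alternatives. Gm15513 (1.96), which has no known product, had -0.54 in wild type and 1.42 in rd10, and its interaction also passed in all of them. Cfi, Tor4a (-1.56) and Ube4bos1 (1.54, antisense to Ube4b) were lost in at least 1. The wild-type responses of Gm15513, Cfi, Tor4a and Ube4bos1 did not pass (adjusted p 0.219 to 0.522).

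**Figure D4:**
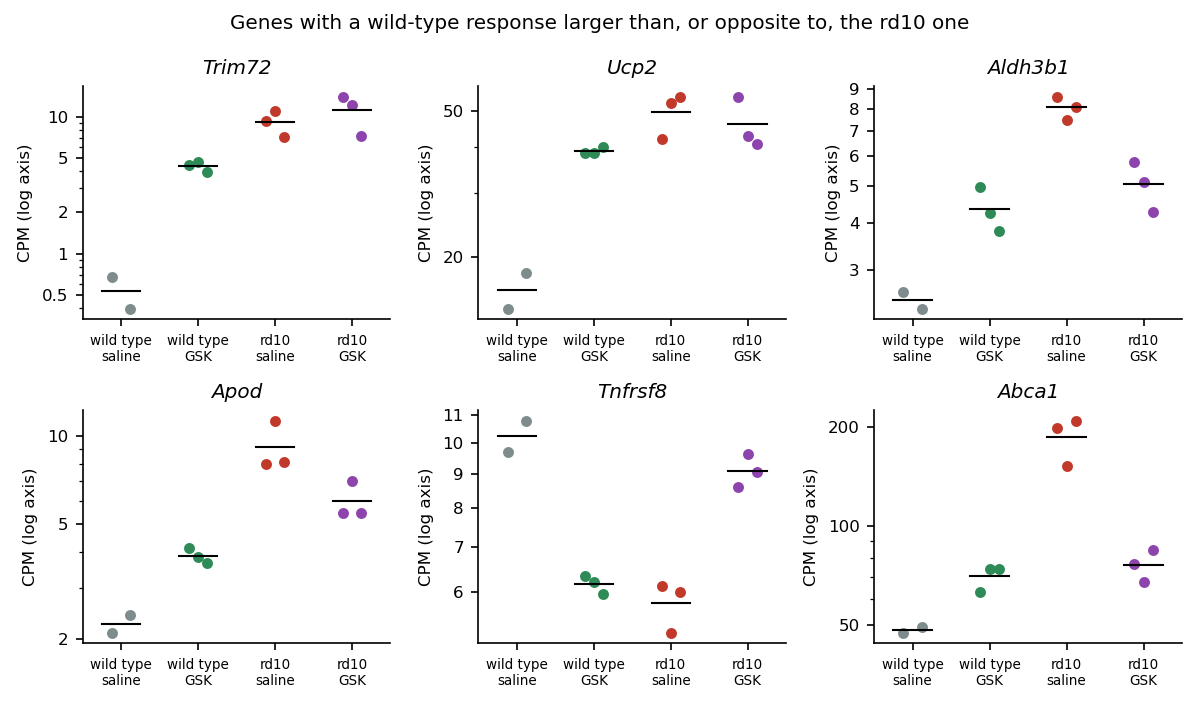
Level of 6 genes whose wild-type response was the larger one or ran against that in rd10 (CPM, log axis) in each of the 11 libraries, with bars at group means. Trim72 and Ucp2 separate by treatment in wild type only, and Aldh3b1, Apod, Abca1 and Tnfrsf8 separate in opposite directions in the 2 genotypes. The wild-type response passed for Trim72, Ucp2 and Tnfrsf8 and did not pass for Aldh3b1, Apod and Abca1.

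GSK changed 66 genes in both genotypes. They were 72.53% of the 91 genes called in wild type, while rd10 called 32.9% of all genes tested. They were 1.174% of the genes called in rd10, while wild type called 0.532% of all genes tested, and 63 of the 66 had the same sign. Pigment epithelium genes, whose RNA a retinal dissection can carry, had similar median responses in both genotypes (1.08 in rd10, 0.90 in wild type), a median interaction of 0.04 (-0.86 without the lens-bearing libraries) and a median SE of 0.88. Their sum was 109.7 and 233 CPM in wild-type saline, 257, 312 and 332 in wild-type GSK, 76.5, 149 and 81.7 in rd10 saline and 177, 183 and 141 in rd10 GSK. Rrh, an opsin of that tissue, was the 1 of 14 that was lower (-1.06), which is 7.14% beside 4.98% of all genes. Of 8 erythroid genes 3 were higher (Slc4a1 at 3.87, Alas2 at 1.67, Bpgm at 0.35), 1 passed without the lens-bearing libraries, and this list summed to 128 to 143 CPM in rd10 saline, 169 to 202 in rd10 GSK and 178 to 219 in wild type. The 3 higher erythroid genes are 37.5% of their list, against 7.49% of all genes. The part of blood or pigment epithelium RNA in other results was not tested.

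**Figure D5:**
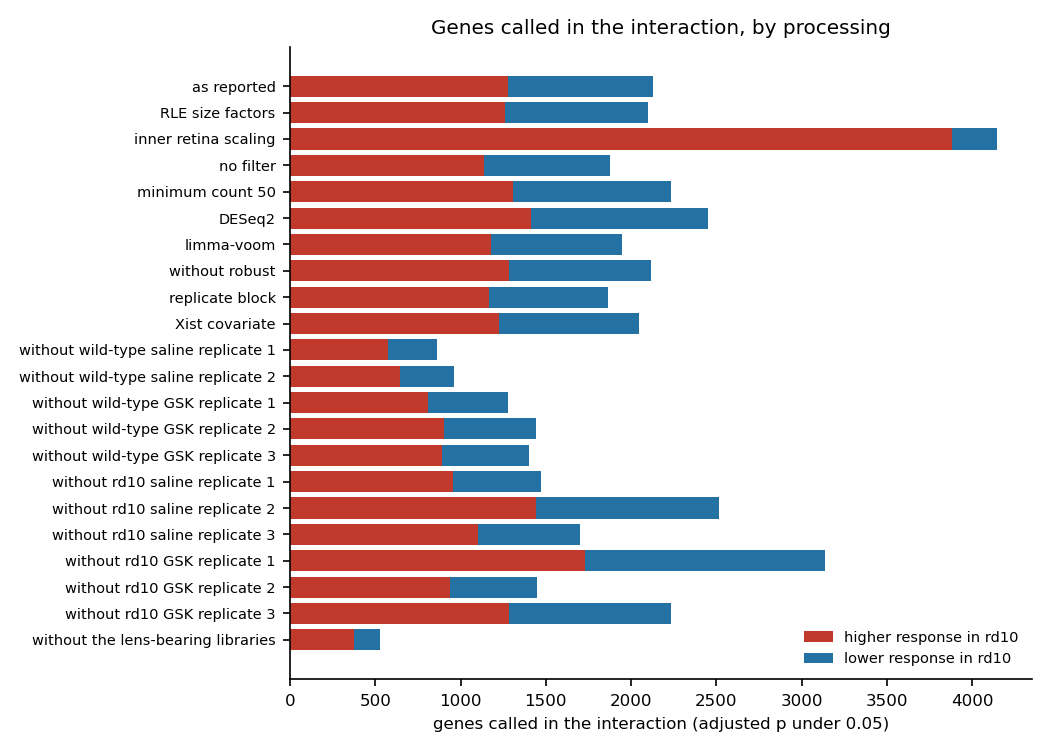
Number of genes higher and lower in the interaction under the main setting and each of 21 alternatives (stacked bars). The count runs from 524 without the lens-bearing libraries to 4145 with inner retina scaling, against 2131 in the main setting.

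Across all 21 alternatives 0 of the 2131 genes changed sign where they were tested, whether or not they passed there. Of the 82 called genes named by the rule, 29 passed in every alternative. Without the lens-bearing libraries 524 genes passed, 509 of them among the 2131 (23.89%).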

How the data were processed

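Polyadenylated RNA from 11 retinas was sequenced from stranded libraries, per the labels. Per the submitters' processing notes, the authors used bcl2fastq, aligned with HISAT2 2.1.0, counted genes with HTSeq and used edgeR, with builds NCBIM37 and mm9. For HTSeq, the version, strand setting and annotation were not given in the sources used here. Genes that overlap on opposite strands are uncertain. Among genes named by the rule and not marked above, these are Alas2, Atf5, Cabp4, Car14, Casz1, Ctsz, Egflam, Hk1 and Kdm4c. Also among them are Pax6, Pde6h, Sh2d1a, Sin3a, Sp6, Suv39h2 and Tagln. The deposited table holds raw counts for 37991 Ensembl genes, of which 32919 were named from GENCODE M21 by identifier; the 5072 others held 0.627% of counts.

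Counts were filtered (filterByExpr, minimum count 10, total 15) to 17099 genes, scaled by TMM and fitted in 1 model with 4 groups and robust quasi-likelihood dispersions (edgeR 4.0.16, R 4.3.3). Contrasts were tested by the quasi-likelihood F-test with Benjamini-Hochberg adjustment over all genes and called at an adjusted p under 0.05. The fit's common biological coefficient of variation came to 0.129. CPM are TMM-scaled, and SEs are on the log2 scale. Differences in log2 do not depend on gene length. The labels name 1 retina per animal, so the animal is the unit of n, and libraries within groups differed beyond sampling noise. The test was checked on simulated counts in which the groups had equal means except for known shifts in rd10 GSK. That setting differs from the real data and does not show that genes without a call had like responses.

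The 38 gene lists hold 688 entries, of which 7 were unmatched (Lrit3, Grk7, Slc18a3, Septin4, Lilrb4a, Psmb9, Syne1). The contrast, members and lists were chosen with earlier results of these data known. Genes were named by a rule: Kdm1a, Hdac1 and Pde6b; of called genes at a mean of at least 5 CPM (outside the lens, erythroid, muscle and sex-linked lists) the 10 highest and 10 lowest interactions, up to 6 with the larger response in wild type and up to 6 with opposite responses of at least 0.5; and per list up to 3 called members at 1 CPM or more, or the most abundant one. List members beyond these were named to fill out a list's count, and some genes are counted but not reported here by name. Promoters are RefSeq sequences (250 bases before to 50 after the start). The alternatives were RLE and inner retina scaling (size factors from amacrine, bipolar and ganglion genes), no filter and a minimum count of 50, DESeq2 1.42.0, limma-voom 3.58.1, a fit without robust dispersions, a replicate block, Xist as a covariate, and leaving out each library or both lens-bearing ones.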

Additional observations from a re-analysis of the deposited data

Results flagged for a closer look

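A difference between the drug responses of the 2 genotypes, tested by the interaction term itself, marked 2131 genes (edgeR quasi-likelihood test, adjusted p under 0.05). Among them were 82 of the genes named by the rule, 43 higher and 39 lower, and 80 are listed here. Groups held 2 or 3 libraries, too few to test a single library for standing apart within its group. Values are the interaction in log2.

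Named genes that were higher and passed in all 21 alternatives were Pdzph1 (3.10), Guca1b (2.32), Sp6 (2.16), Prph2 (1.97), Gm15513 (1.96), Pde6b (1.94), Fos (1.52), Tnfrsf8 (1.39) and Suv39h2 (1.30). The next were Cplx4 (1.29), Egflam (1.28), Atf4 (0.98), Hk1 (0.88), Mta2 (0.76) and Kdm4c (0.68). Named genes that were lower and passed in all 21 were Cabp5 (-0.76), Gpr179 (-0.80), Lhx1 (-0.89), Gpr37 (-1.22), Ucp2 (-1.37), Ctsd (-1.38), Apod (-1.39), Aldh3b1 (-1.47) and Apoe (-1.61). The next were Agt (-1.75), Abca1 (-1.84) and Apoc1 (-2.51).

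Higher in the main setting but lost in at least 1 alternative were Gm16055 (2.94), Lad1 (2.87), Gm14091 (2.73), Ccdc180 (2.44), Sh2d1a (2.37), Nrl (2.16), Pdc (2.10), Junb (1.92) and Prcd (1.85). The next were Npas4 (1.83), Hk2 (1.74), Alas2 (1.67), Tnfaip3 (1.61), Ube4bos1 (1.54), Cabp4 (1.31), Tagln (1.26), Casz1 (1.04) and Atf5 (0.89). Then came Trib3 (0.89), Lmnb1 (0.67), Dot1l (0.60), Lbr (0.57), Ldha (0.54), Ndufa4 (0.48), Vegfa (0.36), Bpgm (0.35) and Sin3a (0.33). Lower in the main setting but lost in at least 1 alternative were Kcnab1 (-0.31), Ndufs4 (-0.32), Dab1 (-0.36), Pax6 (-0.39), Rest (-0.39), Igf1 (-0.45), Pde6h (-0.49), Fgf13 (-0.50) and Lhx2 (-0.54). The next were Cngb3 (-0.66), Ftl1 (-0.68), Ccdc136 (-0.81), Kdr (-0.89), Sst (-0.90), Notch2 (-0.98), Rrh (-1.06), Ctsz (-1.08) and Car14 (-1.33). Then came C1qa (-1.47), Gna14 (-1.48), Tor4a (-1.56), Arhgap45 (-1.73), Trem2 (-1.74), C1qc (-1.82), Cfi (-2.05) and Trim72 (-2.75). Of the 53 genes lost somewhere, leaving out the lens-bearing pair lost 51, and 0 reversed.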

How the results depend on the processing

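The main setting called 2131 genes in the interaction (1280 higher, 851 lower), 5621 in rd10 and 91 in wild type. Inner retina scaling called 4145, with 3880 higher and 265 lower, and raised the median interaction of all genes to 0.22. The wild-type count became 193 with DESeq2, 38 with the replicate block and 54 with Xist as a covariate. Leaving out 1 library at a time gave 864 to 3139 interaction genes, 575 to 1732 higher, 289 to 1407 lower, 4359 to 6346 in rd10 and 12 to 182 in wild type; the lowest interaction count was without wild-type saline replicate 1 and the highest without rd10 GSK replicate 1. Without both lens-bearing libraries the counts were 524, 377, 147 and, in wild type, 12. Fewer samples enter those fits, and a lone wild-type saline library was assumed to vary like the other groups. The cause of the other shifts was not tested. In RLE scaling, no filter, a minimum count of 50, limma-voom and the fit without robust dispersions, every count stayed within 1.5 times the main one.

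Replicate numbers were not treated as pairs, since no label says what they share and 6 of 15, not all, same-numbered pairs of different groups had deviations correlated above 0.1 (-0.19 to 0.39). In the data, 8 of 11 libraries correlated best with their own number, and whether this reflects pairing was not tested. The highest same-number value, 0.39, joined the 2 lens-bearing libraries. The next, 0.23, joined wild-type GSK replicate 2 and rd10 saline replicate 2, both low in Xist. The 2 wild-type saline libraries deviate equally and oppositely from their mean, so their correlations mirror each other. The replicate block called 1866 interaction genes (1169 higher, 697 lower). Depth limits genes under about 1 CPM, and 4502 genes that did not pass have intervals that include a 2-fold difference.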
